A study of Mus musculus with 2 samples.

Results

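The genes described here are 10 genes of the lipid-associated macrophage programme, out of 32285 genes in the count tables: Gpnmb, Mmp12, Trem2, Spp1, Cd9, Fabp5, Itgax, Ear2, Cd63 and Lgals3. Each was taken by its symbol, and each symbol occurred once. They were chosen from measured values of the same sections. Mmp12, Gpnmb and Ear2 had led a group of spots in the section from the high fat diet, and the ratio of Itgax between the sections was known. The study gives Cd9, Trem2 and Spp1 as characteristic of its NASH-associated macrophages, and Mmp12 as high in them. The levels in that section, their ratios to the control section and the meeting of the genes in its spots are therefore a description, and nothing is supported with them.

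Lipid-associated macrophages are macrophages that take up lipid and the remains of dying cells and break them down in lysosomes. They arise in fat tissue, arterial plaque, brain and fatty liver, and in the liver many of them descend from blood monocytes that enter as resident Kupffer cells are lost. TREM2, a surface receptor for lipids and lipoproteins that signals through the adaptor TYROBP, is needed for much of the programme, whose other products handle lipid, guard the lysosome, cut matrix or are secreted. Several of the genes also have other sources in liver, since bile duct epithelium makes osteopontin, dendritic cells carry CD11c, and the tetraspanins CD9 and CD63 occur on many cell types.

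Spatial transcriptomics with 10x Visium was run on 1 liver section of 1 mouse on a normal chow diet (NCD) and on 1 liver section of 1 mouse on a high fat diet (HFD). In this assay RNA is captured on barcoded spots, each a small region of tissue with several cells, and each captured molecule is counted by its unique molecular identifier (UMI). Both mice were male C57BL/6J, 5 weeks old when obtained, and were kept on NCD or on a diet with 60% fat for 14 weeks, followed by 8 weeks in which both received distilled water by mouth each day. The frozen sections of 10 µm were made from the liver of 1 mouse picked at random in each group. With 1 animal a diet, the diet cannot be separated from the animal, the section or the slide, no test was possible, and every interval given is an exact 95% interval for counting error alone.

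Over tissue, NCD gave 29037988 UMIs from 3692 spots, with a median of 4187.5 UMIs a spot. HFD gave 72118803 UMIs from 3594 spots, with a median of 18549. The HFD spots were thus much deeper, so levels are given as UMIs of a gene per 1000000 UMIs of all genes (CPM), and shares of spots at equal depth. Spots outside the tissue held 19.1% of all UMIs on the NCD slide, in 1300 spots, and 2.93% on the HFD slide, in 1398 spots. The labels name hematopoietic stem cells and immune cells, but the counts are those of whole liver: the hepatocyte list (Alb, Apoa1, Ttr, Apoa2, Apoc3, Trf, Rbp4, Fgb) made up 11.98% of the UMIs in NCD and 13.8% in HFD.

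Surface receptors and the integrin of the programme were low in the NCD section and higher in the HFD section. Gpnmb, a glycoprotein of the cell surface and of lysosomes, had 0.895 CPM in NCD (0.585 to 1.31; 26 UMIs) and 20.3 CPM in HFD (19.2 to 21.3; 1462 UMIs), a log2 ratio of 4.50 (3.94 to 5.12). Trem2 had 1.997 CPM in NCD (1.52 to 2.58) and 14.8 CPM in HFD (13.9 to 15.7), a log2 ratio of 2.89 (2.50 to 3.29). Itgax, which encodes the integrin chain CD11c, had 0.964 CPM in NCD (0.641 to 1.39) and 5.88 CPM in HFD (5.33 to 6.47), a log2 ratio of 2.61 (2.06 to 3.22). For these 3 genes the intervals of the sections lay far apart. A spot mixes cells, so more cells that carry a transcript and more transcript in each cell cannot be told apart.

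Among the secreted products, Mmp12, the macrophage metalloelastase, had 1.41 CPM in NCD (1.01 to 1.92) and 21.9 CPM in HFD (20.8 to 23.0), a log2 ratio of 3.95 (3.51 to 4.44). Spp1, which encodes the phosphoprotein osteopontin, had 43.5 CPM in NCD (41.1 to 46.0) and 187 CPM in HFD (184 to 190), a log2 ratio of 2.10 (2.02 to 2.19). It was well detected on the control diet too, unlike the elastase. Lgals3, whose product galectin-3 binds glycans outside cells and on damaged lysosomes, had 17.8 CPM in NCD (16.3 to 19.4) and 61.0 CPM in HFD (59.2 to 62.9), a log2 ratio of 1.77 (1.64 to 1.91). Ear2, a ribonuclease of the eosinophil-associated family, had 4.37 CPM in NCD (3.65 to 5.20) and 14.5 CPM in HFD (13.7 to 15.4), a log2 ratio of 1.73 (1.46 to 2.01). Its relatives were close to absent on either diet. Ear1 had 1 UMI in HFD and 0 in NCD, while Ear6, Ear10 and Ear14 had 0 UMIs in both sections, where 3 counts would be 0.0416 CPM in HFD and 0.103 CPM in NCD.

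The lipid carrier and the tetraspanins split. Cd63, a tetraspanin of late endosomes and lysosomes, had 11.1 CPM in NCD (9.94 to 12.4) and 49.7 CPM in HFD (48.1 to 51.4), a log2 ratio of 2.16 (1.996 to 2.33). Cd9, a tetraspanin of the plasma membrane, had 21.6 CPM in NCD (19.97 to 23.4) and 37.1 CPM in HFD (35.7 to 38.6), a log2 ratio of 0.78 (0.65 to 0.91). Fabp5, a carrier of fatty acids in the cytosol, had 22.7 CPM in NCD (21.0 to 24.5) and 39.9 CPM in HFD (38.4 to 41.4), a log2 ratio of 0.82 (0.69 to 0.94). Cd9 and Fabp5 stood lowest of the 10 by ratio, with intervals that overlap each other and none of the rest.

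By ratio the 10 genes ran from Gpnmb, 22.6-fold (15.4 to 34.8), to Cd9, 1.72-fold (1.57 to 1.88). Neighbours in that order whose intervals overlap are Gpnmb with Mmp12, Trem2 with Itgax, Itgax with Cd63, Cd63 with Spp1, Lgals3 with Ear2, and Fabp5 with Cd9. In all, 8 of 10 were past a fold of 2 higher in HFD and 0 of 10 past it lower, where 10.8% and 2.06% of 11913 genes with at least 100 UMIs were. The median log2 ratio was 2.13 over the 10 genes and 0.24 over all genes tested. Since the genes were selected on this contrast, nothing is read from these counts. Without the 1% of spots with the most UMIs of the gene, the log2 ratio was 8.98 for Mmp12, 4.73 for Trem2 and 2.69 for Spp1, and Gpnmb and Itgax had no NCD value. In NCD Mmp12 was found in 38 spots and Trem2 in 51, so this step removes most of their NCD UMIs by its construction. Summed, the 10 genes had 126 CPM in NCD and 452 CPM in HFD, and Spp1 alone made up 41.3% of the HFD sum.

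**Figure D1:**
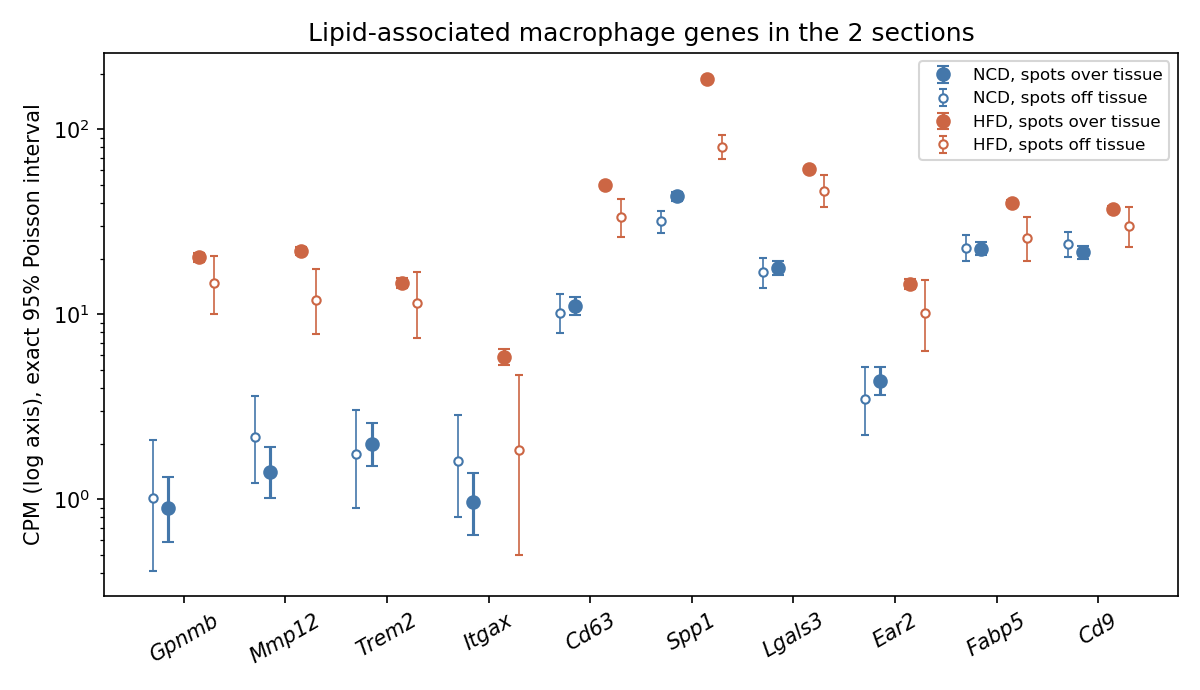
Level of each of the 10 genes in the NCD and the HFD section, in CPM on a log axis, over tissue (filled) and off tissue (open), with exact 95% intervals for counting error. The genes lie between 0.895 and 43.5 CPM over tissue in NCD and between 5.88 and 187 CPM in HFD.

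The spots called outside the tissue give a background level, measured the same way. They had a median of 3383 UMIs in NCD and 1175.5 in HFD, so on the NCD slide they were nearly as deep as the tissue, and whether they held free RNA alone was not tested. In NCD 5 of 10 genes were no higher over tissue than off it, where 50.5% of all genes were, among them Gpnmb with 1.02 CPM off tissue (0.410 to 2.099). Spp1 was the single member whose NCD intervals lay apart, as those of 5.67% of all genes did, with 43.5 CPM over tissue and 31.7 CPM off it (27.7 to 36.2). The NCD levels of the other 9 genes are therefore not told from the level off tissue at this depth. In HFD the level off tissue was lower for all 10 genes, as for 87.8% of all genes, and intervals lay apart for 6 of the 10 (Mmp12, Spp1, Fabp5, Itgax, Cd63 and Lgals3), as for 26.9% of all genes. Itgax had 1.84 CPM off tissue in HFD (0.501 to 4.70) against 5.88 CPM over it. The HFD levels of the other 4 genes, Gpnmb, Trem2, Cd9 and Ear2, are not told from the level off tissue at this depth. Gpnmb had 14.7 CPM off tissue (10.1 to 20.7) against 20.3 CPM over it. Trem2 had 11.5 CPM off tissue (7.43 to 17.0) against 14.8 CPM. Subtracting the level off tissue left 5.57 CPM of Gpnmb and 3.28 CPM of Trem2 in HFD. With the level off tissue subtracted, NCD values of Gpnmb, Mmp12, Cd9, Fabp5 and Itgax fell below 0 and gave no ratio, and the other 5 genes gave log2 ratios from 2.33 for Ear2 to 4.11 for Cd63.

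Macrophage transcripts as a whole were also higher in HFD. The pan-macrophage list (Adgre1, Csf1r, C1qa, C1qb, C1qc, Cd68, Fcer1g, Tyrobp, Aif1, Lyz2) had 458 CPM in NCD and 861 CPM in HFD, a log2 ratio of 0.91 (0.88 to 0.94). Lyz2, for lysozyme, was its most abundant gene, 4 of its 10 genes were past a fold of 2 higher, and none was at 0. Its part in the ratios of the members was not tested. Set against 1000 UMIs of that list, Gpnmb had 1.96 UMIs in NCD and 23.5 in HFD, a log2 ratio of 3.59 (3.03 to 4.21). Mmp12 had 3.08 and 25.4 UMIs by that measure, Trem2 4.36 and 17.1, and Itgax 2.11 and 6.83. These ratios too come from the contrast that chose the genes. Cd63, Spp1, Lgals3 and Ear2 had log2 ratios of 1.25, 1.19, 0.86 and 0.82. Cd9 turned its direction, from 0.78 per UMI of all genes to −0.13 per macrophage UMI (−0.26 to −0.00), and so did Fabp5, from 0.82 to −0.10 (−0.22 to 0.03). By this measure 6 of 10 genes were past a fold of 2 higher, where 2.35% of all genes were, and nothing is read from it.

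Drawn down without replacement to 3000 UMIs, spots of both sections can be compared at equal depth, with 2107 NCD spots kept and 1585 left out, and 3538 HFD spots kept and 56 left out. Gpnmb was then found in 0.142% of NCD spots (0.0294% to 0.416%; 3 spots) and in 5.20% of HFD spots (4.49% to 5.98%). Without drawing down, the shares were 0.704% and 25.4%. Mmp12 was found in 0.522% of NCD spots and 5.40% of HFD spots (1.03% and 24.8% undrawn), and Trem2 in 0.475% and 4.30% (1.38% and 21.8% undrawn). At a like depth these transcripts were found in fewer NCD than HFD spots, and a spot without a UMI is not shown to lack the transcript. Spp1 was found in 8.12% of NCD spots and 30.6% of HFD spots (12.2% and 71.9% undrawn), Cd63 in 3.56% and 12.8% (7.61% and 50.9% undrawn), and Lgals3 in 5.98% and 15.9% (11.3% and 56.9% undrawn). Cd9 was found in 6.69% and 10.0% (13.6% and 46.7% undrawn), Fabp5 in 7.26% and 10.2% (14.2% and 46.6% undrawn), Ear2 in 1.57% and 4.32% (3.03% and 21.3% undrawn), and Itgax in 0.237% and 1.47% (0.704% and 10.1% undrawn).

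How evenly a transcript was spread is seen in the HFD section at 10000 UMIs a spot, with 3025 spots kept and 569 left out. The variance of UMIs per spot over their mean is 1 where molecules fall at random. It was 6.06 for Spp1, which had up to 70 UMIs in a spot drawn to that depth. Next came Mmp12 at 1.75, Lgals3 at 1.59 and Gpnmb at 1.44, while Cd9 at 1.09, Itgax at 1.12 and Trem2 at 1.14 lay closest to 1. This measure grows with the mean of a gene, so it does not rank the genes by how unevenly they lay. Shares at this depth ran from 5.06% of spots for Itgax (4.30% to 5.90%) to 60.4% for Spp1 (58.6% to 62.1%), with Gpnmb at 16.2%, Mmp12 at 15.4% and Trem2 at 12.7%.

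Whether the genes met in the same HFD spots was measured by a co-detection ratio, the number of spots with both genes over the number that the product of their shares gives. Gpnmb and Trem2 met in 109 spots against 62.4 from the product, a ratio of 1.75 (1.44 to 2.10), the highest of all pairs in this draw but not in a second, where Gpnmb with Itgax had 1.89 and Gpnmb with Trem2 1.62. Put as shares, Gpnmb was found in 28.3% of the 385 spots with Trem2 (23.9% to 33.1%) and in 14.4% of the 2640 spots without it (13.1% to 15.8%). This pair joins the receptor for lipids and the lysosomal glycoprotein. Gpnmb and Itgax had a ratio of 1.69 (1.22 to 2.29, 42 spots against 24.8), whose interval spans 1 at 3000 UMIs (1.48) and without duct spots (1.44). Gpnmb and Mmp12 had a ratio of 1.57 (1.31 to 1.88, 119 spots against 75.6), whose interval spans 1 in the middle of the lobule (1.38, 0.991 to 1.86). Mmp12 and Ear2, both secreted, had a ratio of 1.57 (1.27 to 1.93; 88 spots against 55.9). Trem2 and Itgax had a ratio of 1.59 (1.08 to 2.25; 31 spots against 19.5), which turned to 0.895 at 3000 UMIs, with 2 shared spots, and to 0.839 without the spots that held a bile duct UMI, both with intervals that span 1. It was 1.301 (0.772 to 2.05) with Spint2 set aside and 1.41 (0.949 to 2.03) in a second draw, so this call holds in none of these.

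Of the 45 pairs, 7 had a ratio over 1.5, where 0.372% of 26255881 pairs of 7247 genes found in like shares of spots had. The median ratio was 1.18 over the pairs of members and 1.00 over all these pairs of genes. Since the members were chosen from HFD spots, nothing is read from these counts either. The interval lay above 1 in 27 of 45 pairs and below 1 in 0, where 0.913% and 0.67% of the pairs of all these genes did, and again nothing is read from it. Gpnmb, Mmp12, Lgals3 and Cd63 each reached this in 7 of their 9 pairs, Trem2 and Itgax in 6, Ear2 and Fabp5 in 5, Spp1 in 3 and Cd9 in 1. These numbers also rest on how many spots a gene had. Cd9 and Fabp5 met as their shares give, in 265 spots against 269, a ratio of 0.985. Gpnmb and Ear2, both leaders of the HFD spots named at the outset, had a ratio of 1.18 whose interval spans 1 (0.918 to 1.48), but 1.89 (1.06 to 3.10) at 3000 UMIs.

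The number of pairs above 1 depended on which spots were kept, and a second draw at the same depth gave 21, of which 19 were among the 27. It was 14 at 3000 UMIs, with a median ratio of 1.27 and a Gpnmb with Trem2 ratio of 2.53 in 20 shared spots, and 12 of the 14 were among the 27. It was 15 in the 1206 spots without a bile duct UMI and 9 in the 933 spots of the middle of the lobule. The median ratio there was 1.21 and 1.16, against 1.18 in all 3025 spots, so it stayed about as large where fewer pairs were called. With Spint2 set aside, 2568 spots without a duct UMI gave 24, of which 23 were among the 27. In NCD at 3000 UMIs, 2 of 45 pairs lay above 1, Spp1 with Cd63 at 2.63 (16 shared spots) and Spp1 with Cd9 at 1.75 (20 shared spots). Gpnmb met Mmp12 or Trem2 in 0 NCD spots, against 0.0157 and 0.0142 from the product, so nothing is read from these. At this depth 19 of 45 pairs had no shared spot.

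**Figure D2:**
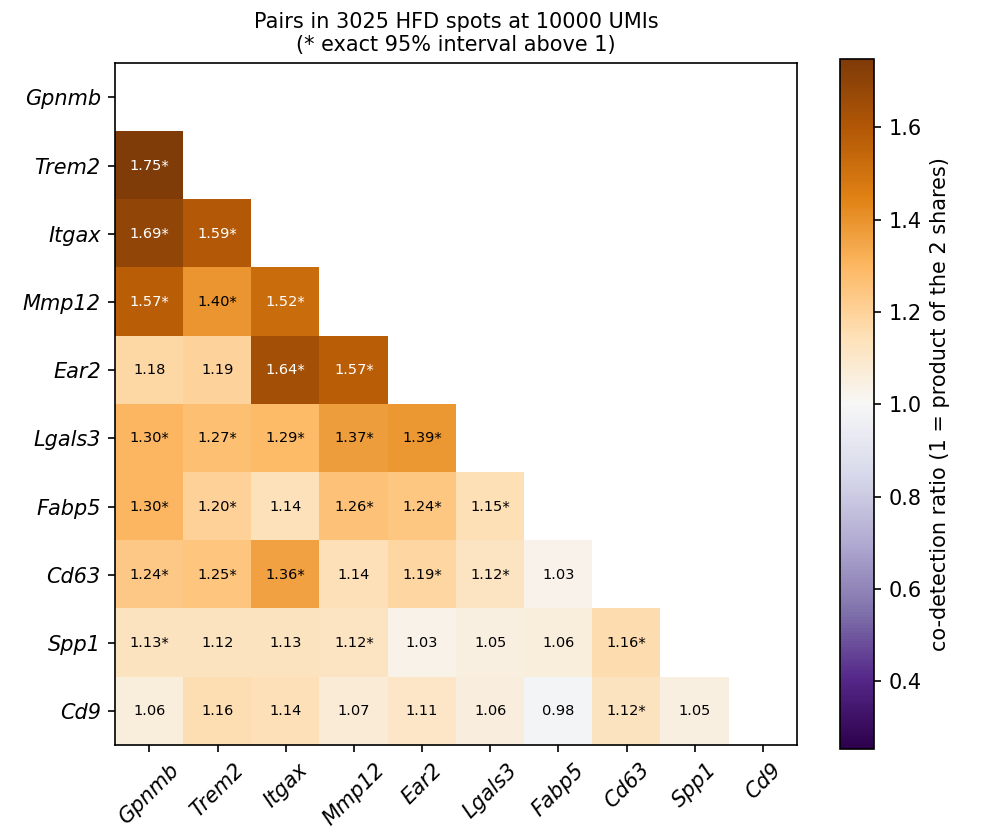
Co-detection ratio of each of the 45 pairs of genes in 3025 HFD spots at 10000 UMIs, where 1 is the number of shared spots that the product of both shares gives; colour runs with the ratio and an asterisk marks an interval above 1. The highest ratio is 1.75 for Gpnmb with Trem2 and the lowest 0.985 for Cd9 with Fabp5.

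Spots that held many of the genes at once were rare but more frequent than the product of the shares gives. At 10000 UMIs, 147 of 3025 HFD spots (4.86%) held at least 6 of the 10 genes, against 43.8 from the product. At least 8 genes were found in 20 spots, against 0.500. Spots with none numbered 201 against 120. Since members were chosen from HFD spots, nothing is read from these numbers. The most in a spot was 9 genes, in 7 spots. At 3000 UMIs, at least 4 genes were found in 68 of 3538 HFD spots, against 33.6 from the product, and in 3 of 2107 NCD spots, against 0.295. At least 3 genes were found in 19 NCD spots, against 6.77.

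Seen from Gpnmb, the gene with the highest ratio between sections, other genes met it as often as the macrophage members did. Of 9598 genes found in at least 100 HFD spots, the 12 with the highest co-detection ratio with Gpnmb ran from Cxcl14 at 1.87 to Lilr4b at 1.66, over 30 to 109 shared spots. They were Cxcl14, Cyp4f16, Timp1, Bin2, Tnc, Trem2, Glipr1, Evi2a, Fam129b, Itgax, Pik3cd and Lilr4b. Timp1 encodes an inhibitor of metalloproteinases and Tnc the matrix protein tenascin-C, while Bin2, Evi2a, Pik3cd and Lilr4b are genes of blood-derived cells. Trem2 came 6th, Itgax 10th and Mmp12 24th, so 3 of 9 other members had a ratio over 1.5, where 0.531% of the 9598 genes had. Fabp5 came 302nd, Lgals3 305th, Cd63 539th, Ear2 977th, Spp1 1547th and Cd9 2791st. These ranks come from a single draw, and Trem2 and Itgax changed places by ratio in a second. The ratio also has a ceiling that falls as a gene is found in more spots. Spp1, found in 1826 spots, is thus held to a lower ceiling than the scarcer genes at the top. Fabp5 and Lgals3 had ratios to Gpnmb of 1.299 each and Cd9 had 1.06, where the median over all genes was 1.01.

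Macrophage transcripts were richer in spots with a member, and how much richer differed between the members. At 10000 UMIs in HFD, spots with Trem2 had a mean of 11.8 UMIs of the pan-macrophage list and spots without it 8.31, a log2 ratio of 0.50 (0.45 to 0.55). Ear2 had a log2 ratio of 0.52, Gpnmb of 0.48, Mmp12 and Lgals3 of 0.44 and Itgax of 0.34. Cd63 had 0.30, Fabp5 0.20, Cd9 0.15 and Spp1 0.09. Spp1 and Cd9 thus had the lowest of these ratios, though the interval of Cd9 (0.11 to 0.19) overlaps that of Fabp5 (0.16 to 0.24). Against the Kupffer cell list (Clec4f, Timd4, Vsig4, Cd5l, Marco, Clec1b, Folr2, Slc40a1, Xlr, C6), Ear2 stood out with a log2 ratio of 0.49, while Trem2 had 0.27, Gpnmb 0.19 and Spp1 −0.22. Ear2 is named for eosinophils, but the eosinophil list (Siglecf, Ccr3, Prg2, Epx, Il5ra) summed to 0.207 CPM in NCD and 0.610 CPM in HFD. Siglecf was its most abundant gene in HFD and had 0 UMIs in NCD, where Prg2 led with 4 UMIs, and Epx and Il5ra, which define the cell, had 0 UMIs in both sections. At 10000 UMIs 17 HFD spots held a UMI of this list, of which 5 held Ear2 and 8 held Gpnmb, too few to place either gene.

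Spp1 and Itgax, and less so Cd63, went with bile duct transcripts. Spint2 alone was found in most spots, so the duct list without it was used (Epcam, Krt19, Krt7, Sox9, Cldn7, Tspan8, Cldn4), a choice made after seeing the data. Of the 3025 HFD spots, 457 (15.1%) held a UMI of that list, and Spp1 had a mean of 4.11 UMIs in them and 1.25 elsewhere, a fold of 3.30. These spots held 37.0% of all Spp1 UMIs. Osteopontin transcripts were thus dense at ducts, though most lay in spots with no duct transcript found. Itgax had a mean of 0.107 UMIs in duct spots and 0.0452 elsewhere, a fold of 2.37. Seen the other way, spots with Spp1 had a log2 ratio of duct UMIs of 2.19 to spots without it, Itgax 1.53, Cd63 0.84, Cd9 0.48 and Trem2 0.44, while the intervals of Gpnmb (0.16) and Mmp12 (0.18) span 0. In NCD at 3000 UMIs, 54 spots held a duct UMI, with a mean of 2.15 Spp1 UMIs in them and 0.101 elsewhere.

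Smooth muscle transcripts went with the same members in another order, and with Lgals3. They are found in vessel walls, but the study uses Acta2, a gene of this list, as a fibrosis marker. The cells that held them were not told apart. Spots with Cd63 had a mean of 1.39 UMIs of the smooth muscle list (Acta2, Myh11, Tagln, Cnn1, Actg2) and spots without it 0.425, a log2 ratio of 1.71. Spp1 had a log2 ratio of 1.15, Itgax of 1.12, Trem2 of 0.96, Cd9 of 0.80 and Lgals3 of 0.68. Gpnmb had 0.23, Mmp12 −0.07, Fabp5 −0.17 and Ear2 −0.62. Spots with Trem2 or Itgax were thus rich in transcripts of this list by that ratio, and those with Ear2 poor in them. For Mmp12 the sign depended on the measure, since its mean was 1.32-fold higher in spots with a smooth muscle UMI than elsewhere. By that measure Itgax was 2.22-fold, Trem2 1.47-fold and Gpnmb 1.39-fold higher, and Ear2 had a fold of 0.872. The 886 spots with smooth muscle UMIs (29.3%) held 38.1% of the Cd63 UMIs and 46.2% of the Spp1 UMIs. For dendritic cell transcripts (Xcr1, Clec9a, Flt3, Cd209a, Clec10a, Zbtb46, Siglech, Ccr9), Itgax had a log2 ratio of 0.93, Cd63 of 0.82, Spp1 of 0.81 and Gpnmb of 0.53. Spots of a kind lie in clusters, which these intervals do not cover, and the part of these cell types in the levels of the members was not tested.

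**Figure D3:**
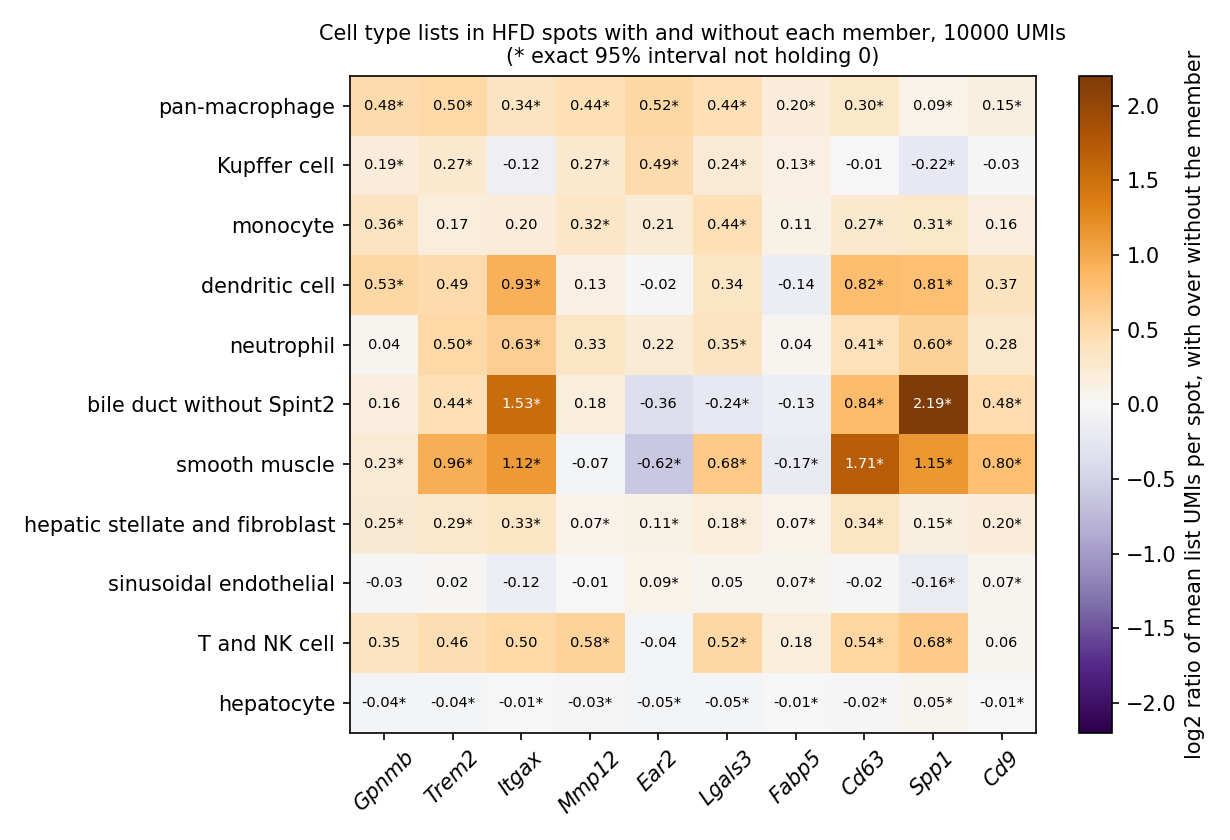
Log2 ratio of the mean UMIs of 11 cell type lists in HFD spots with a member over spots without it, at 10000 UMIs a spot (3025 spots); colour gives the ratio and an asterisk marks an interval without 0. Of the values drawn, Spp1 is highest for the bile duct list without Spint2 at 2.19, and Ear2 is lowest for smooth muscle at −0.62.

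Between the sections, the lists of several of these cell types were also higher in HFD. Counts past a fold of 2 in these lists stand beside 10.8% of all genes higher and 2.06% lower. The smooth muscle list had 26.9 CPM in NCD and 71.9 CPM in HFD, with 4 of 5 genes past a fold of 2 higher (Tagln most abundant, Cnn1 highest at a log2 ratio of 1.99). The bile duct list with Spint2 had 90.4 CPM and 100 CPM, with 5 of 7 genes past that fold. Spint2, its most abundant gene, had a log2 ratio of −0.10, and Tspan8 and Krt19 had 2.52 and 1.53. Muscle transcripts were thus higher on the slide where Spp1, Cd63 and Itgax were higher. The duct list as a whole had a log2 ratio of 0.15 (0.08 to 0.21), below the median of 0.24 over all genes tested. The part of either list in the levels of these members was not tested. The stellate cell and fibroblast list had 277 CPM and 595 CPM (4 of 9 genes, Dcn most abundant, Col3a1 at 2.73), the monocyte list 18.0 CPM and 39.3 CPM (2 of 3, Plac8 most abundant), and the dendritic cell list 6.23 CPM and 8.67 CPM (2 of 3, Zbtb46 most abundant). The Kupffer cell list was lower, with 405 CPM in NCD and 315 CPM in HFD, and 4 of 9 genes past a fold of 2 lower. Marco had a log2 ratio of −3.20 and Timd4, a marker of Kupffer cells of embryonic origin, of −3.17, while Cd5l, its most abundant gene, had 0.51. The defining marker Clec4f had −0.14 and Clec1b 0.01, so the genes of this list did not move together. Kupffer cells of that origin are known to be lost in fatty liver disease, and the part of this list in the levels of Trem2 and Gpnmb was not tested. None of the genes in these lists was at 0 in either section. The sinusoidal endothelial list had 1 of 8 genes past a fold of 2 higher, the mesothelial list 1 of 3, and the neutrophil, T and NK cell and hepatocyte lists none in either direction. The red blood cell list had 6738 CPM in NCD and 1292 CPM in HFD (4 of 5 genes lower), and the B and plasma cell list 18.0 CPM and 5.63 CPM (1 of 2 lower).

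The liver lobule runs from the portal vein, with its duct and artery, to the central vein, and the genes were next placed along that axis. Spots with at least 1000 UMIs (2852 in NCD, 3590 in HFD) were ranked within each section by 7 pericentral and 6 periportal hepatocyte genes and split into a periportal, a middle and a pericentral part of equal number. Genes left out of the ranking checked it: in HFD the log2 ratio of the pericentral to the periportal part was 2.95 for Cyp2c37 and −1.09 for Cps1, and in NCD 2.74 and −0.47. The parts thus follow the axis in both sections. In HFD the periportal spots were deeper, with a median of 24333 UMIs against 15609 in the middle and 16544 in the pericentral part. In NCD they were the shallowest, with a median of 5180 UMIs against 7975 and 7237.5.

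Over all spots, Spp1 had the steepest gradient of the members, in both sections. In HFD it had 293 CPM in the periportal part, 144 CPM in the middle and 77.1 CPM in the pericentral part, a log2 ratio of pericentral to periportal of −1.93 (−2.01 to −1.85). In NCD it had 102, 32.5 and 8.35 CPM, a log2 ratio of −3.60 (−3.95 to −3.27). Osteopontin transcripts lay on the portal side on either diet, less steeply in HFD, a difference that was not tested. Without spots with a bile duct UMI the HFD ratio of Spp1 was −0.65 (−0.87 to −0.43), less than that of Mmp12 at −0.81, and with Spint2 set aside it was −1.02 (−1.12 to −0.92). In HFD Itgax had 7.37, 5.45 and 4.17 CPM, a log2 ratio of −0.82 (−1.19 to −0.46), which turned to 0.19 without the spots that held a bile duct UMI, with an interval that spans 0. That leaves 181 of 1197 periportal spots, because Spint2 counts there, and with Spint2 set aside Itgax stayed lower at −0.53 (−0.98 to −0.08). Cd63 had 53.2, 54.0 and 40.6 CPM, a log2 ratio of −0.39 (−0.51 to −0.27), which turned to 0.079 without duct spots and was −0.09 with Spint2 set aside, both with intervals that span 0. The bile duct list with Spint2 was itself periportal in HFD, with a log2 ratio of −0.34, and so was the smooth muscle list at −1.34. In NCD the duct list had 0.09 (−0.05 to 0.24) and the smooth muscle list −2.89 (−3.34 to −2.47). Their part in these gradients was not tested.

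Several members, among them Gpnmb, Mmp12 and Trem2 but not Itgax, were higher in the middle of the HFD lobule than in its outer parts as a pair. Mmp12 had 21.4 CPM in the periportal, 27.9 CPM in the middle and 16.5 CPM in the pericentral part, and a log2 ratio of the middle to the outer parts of 0.53 (0.38 to 0.68). Gpnmb had 20.6, 23.0 and 17.2 CPM, with a ratio of 0.26 (0.10 to 0.42), and Trem2 had 15.04, 16.9 and 12.3 CPM, with a ratio of 0.28 (0.09 to 0.46). Lgals3 had 53.6, 72.9 and 59.9 CPM, with a ratio of 0.38, and Ear2 had 13.02, 17.3 and 13.9 CPM, with a ratio of 0.36. With Cd9 and Cd63, 7 of 10 genes had an interval above 0 by this measure, where 12.5% of 10766 genes had, while Itgax had −0.15 (−0.48 to 0.16). In NCD 0 of 10 genes had one, and in HFD Spp1 was lower in the middle, at −0.51 (−0.57 to −0.45). For Gpnmb, Trem2, Cd9 and Cd63 the intervals of the middle and periportal parts overlap, and for Ear2 those of the middle and pericentral parts, so no peak is shown for these. The pan-macrophage list was higher there as well, at 0.35, with 747, 1015 and 872 CPM. Per macrophage UMI, Gpnmb had 27.5, 22.6 and 19.7 UMIs per 1000, and Mmp12 28.7, 27.5 and 18.9. Measured so, 7 of 10 genes were lower in the pericentral than in the periportal part, where 35.5% of all genes were, with log2 ratios of −0.60 for Mmp12, −0.51 for Trem2, −0.48 for Gpnmb and −1.04 for Itgax. The intervals of Ear2, Fabp5 and Lgals3 spanned 0.

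Between the outer parts of the HFD lobule, 2 of 10 genes, Spp1 and Itgax, were past a fold of 1.5 on the periportal side, where 3.33% of 10766 genes were, and 0 of 10 on the pericentral side, where 4.86% were. In NCD 5 of the members had at least 100 UMIs in the outer parts, and 2 of these, Spp1 and Cd63, were past the fold on the periportal side, where 2.51% of 7678 genes were, and 0 on the pericentral side, where 7.28% were. Past that fold were thus Spp1 in both sections, Itgax in HFD and Cd63 in NCD. By interval alone, 7 of 10 genes were lower and 2 higher in the pericentral part in HFD, where 10.3% and 31% of all genes were. In NCD 4 were lower and 1 higher, where 7.96% and 29.1% were. Spp1 and Cd63 were still lower in HFD with spots drawn to 3000 UMIs, and Spp1 and Mmp12 without spots with a bile duct UMI, while the other genes were not beyond counting error there. With 4 parts in place of 3, the HFD intervals of Gpnmb (−0.14, −0.36 to 0.08) and Trem2 (−0.18, −0.44 to 0.09) spanned 0. Ear2 was then higher on the pericentral side of HFD, at 0.30 (0.05 to 0.55). With Spint2 set aside, 5 were still lower, Gpnmb, Mmp12, Trem2, Spp1 and Itgax. For most members a call thus depended on the spots kept, the number of parts or the depth. Drawn to 3000 UMIs, Gpnmb had −0.32 in HFD and Mmp12 −0.47, against −0.26 and −0.38 without drawing down. Trem2 had −0.28 and Itgax −0.97, against −0.29 and −0.82. For these genes the intervals widened there while the ratios stayed about as large. Cd9 moved from −0.20 to −0.07. Fabp5 had opposite signs, with log2 ratios of −0.42 in NCD (−0.72 to −0.12) and 0.16 in HFD (0.03 to 0.28), the latter not beyond counting error with a summed score, drawn to 3000 UMIs or without duct spots by either list. The HFD value was beyond it with 4 parts (0.18) and with at least 3000 UMIs a spot (0.15). Lgals3 was higher on the pericentral side in both, with 0.39 in NCD (0.05 to 0.74) and 0.16 in HFD (0.05 to 0.27). Neither was beyond counting error with a summed score (0.23 and 0.0012), drawn to 3000 UMIs (0.65 and 0.04) or without spots with a bile duct UMI (0.41 and 0.20). With Spint2 set aside it was 0.38 in NCD (0.01 to 0.75) and 0.06 in HFD (−0.07 to 0.19). With 4 parts in place of 3 it was 0.28 in NCD (−0.13 to 0.71) and 0.28 in HFD (0.15 to 0.40). Gpnmb, Mmp12, Trem2, Itgax and Ear2 had 8 to 49 UMIs in each NCD part, and a gradient was not detectable at that depth.

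**Figure D4:**
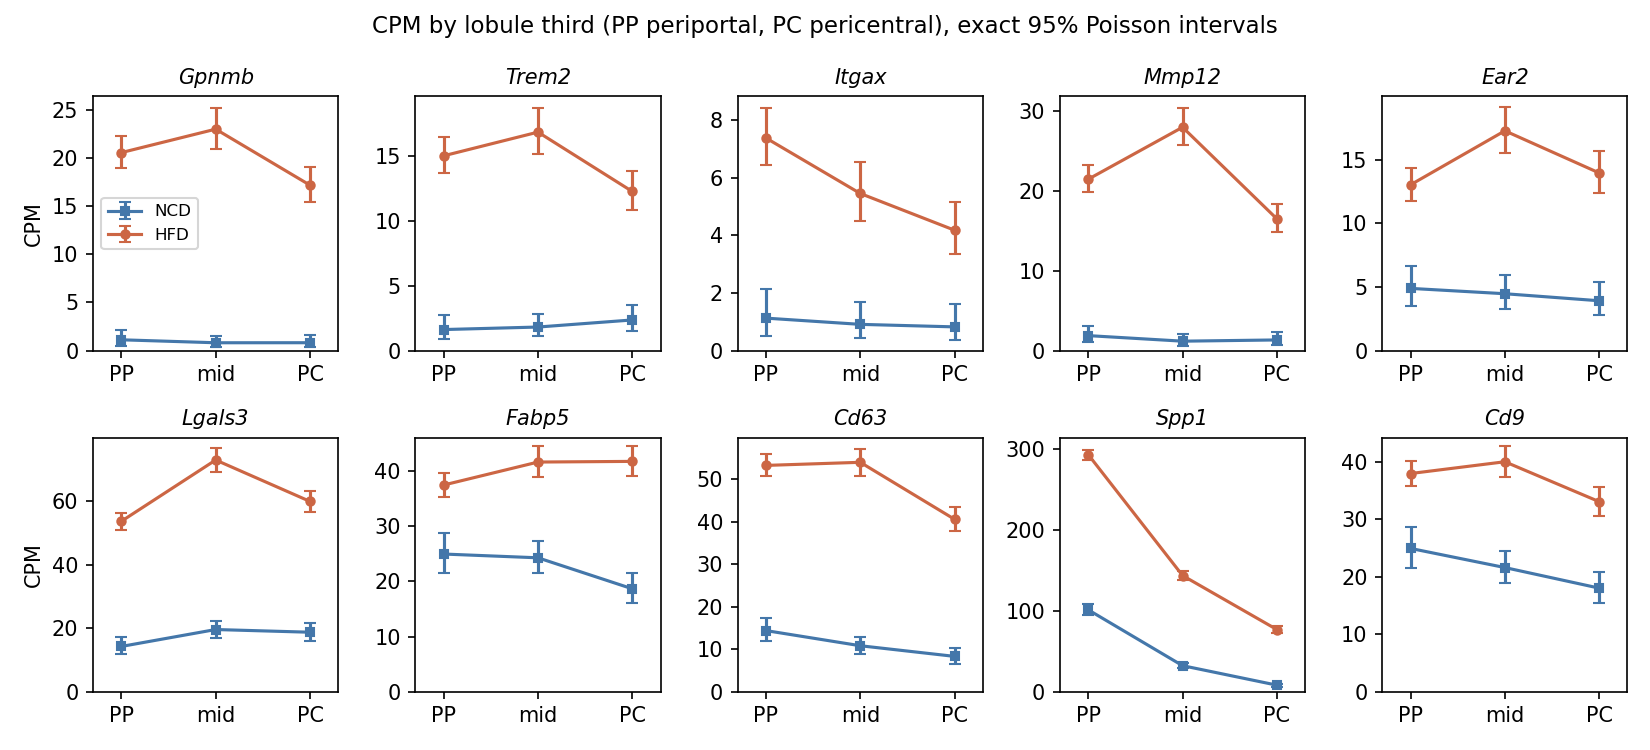
Level of each of the 10 genes in the periportal, middle and pericentral part of the lobule in each section, in CPM, with exact 95% intervals for counting error. In HFD Spp1 runs from 293 CPM in the periportal to 77.1 CPM in the pericentral part, while Mmp12 is highest in the middle at 27.9 CPM.

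Other genes of the same programme varied widely between the sections. Of the lysosome and lipid genes, 8 of 24 were past a fold of 2 higher and 0 lower, with a median log2 ratio of 0.90, where 10.8% of all genes tested were higher and 2.06% lower. The scavenger receptor Cd36 had 1.80 and the protease cathepsin S, Ctss, 1.31, while Nceh1, a cholesterol ester hydrolase, had −0.21 and Ctsl −0.03. These genes serve lysosomes and lipid handling in many cell types. Of the genes of TREM2 signalling and its ligands, 4 of 10 were past a fold of 2 higher, with a median of 0.72. Tyrobp, the adaptor of TREM2, had a log2 ratio of 0.81, Inpp5d, a phosphatase that restrains the pathway, 1.37, and Ms4a7 1.59. Apoe, a ligand that hepatocytes also make in bulk, had 0.19, and Hcst, another adaptor, −0.12.

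Of the transcription factors, 1 of 10 was past a fold of 2 higher, a share close to the 10.8% of all genes, with a median log2 ratio of 0.75. It was Bhlhe40, at 2.68, followed by Cebpb at 0.91, while Nr1h3, the oxysterol receptor LXRα, had 0.18 and Mitf, which drives lysosomal genes, 0.31. Of further genes known from lipid-associated macrophages, 11 of 17 were past a fold of 2 higher, with a median of 1.28. Lgals1, for galectin-1, had 2.98 and the monocyte chemokine receptor Ccr2 2.41, while Igf1, which hepatocytes make in bulk, had −0.54 and Cd52 0.54. Co-detection with Gpnmb was also read for these lists. Of these further genes, 1 of 16 measured had a co-detection ratio with Gpnmb over 1.5, where 0.531% of all genes had, Capg, an actin capping protein, and 0 of 23 lysosome and lipid genes, 0 of 9 signalling genes and 0 of 8 transcription factors had. A gene found in most spots cannot reach that ratio, as with Ctsb, in 3024 of 3025 HFD spots, Apoe, in 3025, and Cebpb, in 2918. The counts of 0 were thus in part fixed in advance, and nothing is read from them.

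The start sites of the genes were read for short motifs, as a description of their sequence. RefSeq promoters on build GRCm38.p6, from 250 bases before to 50 after a start, were at hand for 9 of the 10 genes, 11 promoters in all, and Fabp5 had none. Each was searched on both strands for TGACTCA, the AP-1 motif, for GAGGAA, the core of the motif of the macrophage factor PU.1, and for CACGTG, the E-box read by the MiT and TFE factors of lysosomal genes. TGACTCA was found in 3 of 11 promoters, those of Gpnmb, Itgax and the second start of Mmp12, and in 5.20% of all 32851 promoters. GAGGAA was found in 4 of 11, of Cd63, Mmp12, Spp1 and Trem2, and in 28.3% of all promoters, and CACGTG in 0 of 11 and 7.15% of all. The 3 promoters with TGACTCA are shown, and that of Trem2, the receptor of the programme. Capitals mark TGACTCA or its other strand TGAGTCA, and in Trem2 TTCCTC, the other strand of GAGGAA. All lie on the plus strand, Gpnmb at chr6:49036268-49036567, Itgax at chr7:128129300-128129599, Mmp12 at chr9:7347124-7347423 and Trem2 at chr17:48346151-48346450. A match is a description of the letters and shows neither binding nor use.
Gpnmb: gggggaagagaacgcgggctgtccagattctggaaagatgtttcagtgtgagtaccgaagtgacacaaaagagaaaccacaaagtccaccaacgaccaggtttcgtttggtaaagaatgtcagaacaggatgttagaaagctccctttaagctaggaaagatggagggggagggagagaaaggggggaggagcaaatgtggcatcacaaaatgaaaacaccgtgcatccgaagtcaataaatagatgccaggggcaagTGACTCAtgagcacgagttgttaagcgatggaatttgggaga
Itgax: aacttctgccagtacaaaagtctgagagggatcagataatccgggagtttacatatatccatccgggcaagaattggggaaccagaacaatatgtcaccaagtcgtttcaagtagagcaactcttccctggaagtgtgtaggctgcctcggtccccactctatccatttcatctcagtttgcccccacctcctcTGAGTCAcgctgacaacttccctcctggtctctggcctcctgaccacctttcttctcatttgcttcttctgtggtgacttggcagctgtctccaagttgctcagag
Mmp12: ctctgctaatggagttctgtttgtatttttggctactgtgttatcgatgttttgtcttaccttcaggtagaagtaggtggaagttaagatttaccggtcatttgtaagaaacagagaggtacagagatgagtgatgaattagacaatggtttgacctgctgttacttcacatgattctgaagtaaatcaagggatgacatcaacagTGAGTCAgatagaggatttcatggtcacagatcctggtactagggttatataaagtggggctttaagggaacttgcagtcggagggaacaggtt
Trem2: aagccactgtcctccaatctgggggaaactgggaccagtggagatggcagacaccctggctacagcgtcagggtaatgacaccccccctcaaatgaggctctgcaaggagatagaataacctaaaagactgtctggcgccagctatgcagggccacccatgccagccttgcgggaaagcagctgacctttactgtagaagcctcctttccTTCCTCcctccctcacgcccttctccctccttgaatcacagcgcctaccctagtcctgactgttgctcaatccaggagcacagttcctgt
The genes themselves lie apart in the genome, on chromosomes 3, 5, 6, 7, 9, 10, 14 and 17. Gpnmb (ENSMUSG00000029816) spans chr6:49036546-49070929, Trem2 (ENSMUSG00000023992) chr17:48346401-48354147, Itgax (ENSMUSG00000030789) chr7:128129547-128150657 and Mmp12 (ENSMUSG00000049723) chr9:7344381-7369499 in GENCODE on GRCm38. Spp1 (ENSMUSG00000029304) spans chr5:104435118-104441050, Cd63 (ENSMUSG00000025351) chr10:128900989-128912822 and Fabp5 (ENSMUSG00000027533) chr3:10012548-10016607. Cd9 (ENSMUSG00000030342), alone on the minus strand, spans chr6:125460266-125494791, and Ear2 (ENSMUSG00000072596) and Lgals3 (ENSMUSG00000050335) span chr14:44102654-44103534 and chr14:47367751-47386160. Gpnmb and Cd9 share chromosome 6 and Ear2 and Lgals3 chromosome 14, far apart, so no members overlap. Genes annotated over Mmp12, Cd9 and Ear2 and present in the tables had at most 2 UMIs in a section and add next to nothing to these counts.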

How the data were processed

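The authors deposited UMI counts per gene and spot, without normalization, for all spots and for the spots over tissue of 1 NCD and 1 HFD section. Per their processing notes these were made with Space Ranger 1.3.1 on mm10. The depth was 29037988 UMIs in NCD and 72118803 UMIs in HFD. UMIs were summed over spots and divided by all UMIs. Intervals are exact (Poisson for levels, conditional binomial for ratios, Clopper-Pearson for shares of spots) at 95% and cover counting error only. Spots were drawn down with seed 1 to 3000 UMIs, and in HFD also to 10000. No test was possible.

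The genes named are the 10 members, the 12 most like Gpnmb and, from each list, genes among those with the 2 highest and the 2 lowest ratios and the markers that define a cell type. For cell type lists not all of these are printed, and the most abundant gene is added. Capg, and the lobule check genes Cyp2c37 and Cps1, were named after their values were seen. The members and lists were chosen with earlier results of these data known. Some genes stand in more than 1 list: Cd68 and Tyrobp are also pan-macrophage genes, Ccr2 is also a monocyte gene and Krt19 is also a mesothelial gene.

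Alternatives changed the denominator, the weighting and depth of spots, the spots kept, the seed, the zone score and the subtraction of the level off tissue. The bile duct list without Spint2 was chosen after seeing the data. Spot positions were not used. The calculations were tested on simulated data. Matplotlib 3.10.9, pandas 2.3.3, scipy 1.17.1 and numpy 2.4.6 were used under Python 3.11.15.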

Additional observations from a re-analysis of the deposited data

Results flagged for a closer look

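Fabp5, the fatty acid carrier, had opposite gradients in the 2 sections. Its log2 ratio of the pericentral to the periportal part of the lobule was −0.42 in NCD and 0.16 in HFD, each beyond counting error. In HFD the interval spanned 0 with a summed score (0.09), drawn to 3000 UMIs (0.09) and without duct spots by either list (0.16 and 0.15). It is given here because the sections point in opposite directions, and the difference was not tested, with 1 section a diet.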

How the results depend on the processing

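Between the sections, the median log2 ratio of the 10 genes was 1.74 as a mean of CPM per spot, 1.79 at 3000 UMIs, 1.96 at 1000 UMIs and 1.22 per pan-macrophage UMI. Per pan-macrophage UMI Cd9 turned to −0.13 and Fabp5 to −0.10. The number of pairs above 1 was 14 at 3000 UMIs, 15 without spots with a bile duct UMI and 9 in the middle of the lobule. The Trem2 with Itgax ratio turned to 0.895 at 3000 UMIs and 0.839 without those spots, and was 1.301 with Spint2 set aside. Along the lobule, 0 genes were higher on the pericentral side in NCD with 4 parts in place of 3, with a summed score, with at least 3000 UMIs a spot, drawn to 3000 UMIs, and without spots with a bile duct UMI, and 2 were lower in that last case. In HFD 0 genes were higher with a summed score, drawn to 3000 UMIs, without spots with a bile duct UMI, and without spots with a UMI of that list other than Spint2, the last chosen after seeing the data. With 4 parts 3 were higher in HFD (Fabp5, Ear2 and Lgals3) and 5 lower. With at least 3000 UMIs a spot 2 were higher and 7 lower. In HFD 2 were lower drawn to 3000 UMIs and without spots with a bile duct UMI, where Itgax turned to 0.19 and Cd63 to 0.079. Drawn to 3000 UMIs, Gpnmb, Mmp12, Trem2 and Itgax had −0.32, −0.47, −0.28 and −0.97, about as large as without drawing down but with wider intervals. For each of these changes in counts and values the cause was not tested. Spp1 was lower on the pericentral side in both sections under every alternative tried. Of the other values of single genes and pairs, 63 moved beyond their interval and 169 did not. Of the counts and medians over the members or pairs, 19 moved under an alternative and 27 did not. The rule for calling a median moved was changed once after its outcome had been seen.

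Leaving out the 1% of spots with the most UMIs of a member gave no NCD value for Gpnmb and Itgax and log2 ratios of 8.98 for Mmp12 and 4.73 for Trem2, since it removes most NCD spots with a UMI of these scarce genes. It gave 2.69 for Spp1, which was found in 451 NCD spots, and the cause of that move was not tested. Subtracting the level off tissue gave no ratio for 5 genes, so neither step gave a median over the 10. No paired analysis was possible because each group has 1 section from a different animal. In NCD 840 of 3692 spots had fewer than 1000 UMIs, and 5 of 10 members were no higher over tissue than off it. Shares of spots count spots with a UMI, not cells that express a gene.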
